A study of Mus musculus with 12 samples.

Results

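The 10 genes described here encode structural proteins of the basement membrane or a protein that binds its collagen: the nidogens Nid1 and Nid2, the laminin chains Lama1, Lama5, Lamb1 and Lamc1, the type IV collagen chains Col4a1 and Col4a2, the proteoglycan perlecan (Hspg2) and the collagen-binding protein Sparc. They were taken by gene symbol, as a list of known parts of this structure, from a table of 37477 gene symbols measured in every library, and all 10 symbols were found. The list was chosen with earlier results of these data known. RNA was sequenced from the mouse embryonic stem cell line CCE, grown with serum and the cytokine LIF. The shTUNA cells carried a pLKO.1-puro lentivirus with a hairpin against the long noncoding RNA TUNA and were collected 2, 4 or 6 days after transduction, and the shControl cells carried the same vector with a control hairpin and were collected at day 2. All 4 groups went through puromycin selection, and each holds 3 libraries. The later days have no control of their own among the libraries analysed here, so that hairpin and time in culture cannot be told apart in the comparisons of those days with shControl. The labels name a single cell line and no separate cultures for the replicates, and the p-values below therefore measure only the spread between these libraries.

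A basement membrane is a thin sheet of extracellular matrix on which epithelia rest. Laminin trimers of an alpha, a beta and a gamma chain form its first network at the cell surface, type IV collagen forms another, and nidogens and perlecan link the networks. In the early mouse embryo, laminin and type IV collagen are laid down between the epiblast, from which embryonic stem cells are derived, and the primitive endoderm, and cells bind the sheet through integrins and dystroglycan.

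Values are given as normalized counts, the authors' log2 values raised back, where a row at 0 stands for 1 normalized count or less and is called listed at 0. The libraries held 3522462 to 5652486 recovered reads, of which 60.4% to 76.9% fell in 3 rows (Rnu3a, Tex14 and LOC100503663), leaving 936510 to 2024764 reads for all other genes. Nid1 rested on 29.3 to 125.1 reads per library and Col4a2, the lowest of the 10, on 3.23 to 18.8. The row of the targeted RNA, listed under the older symbol 2810011L19Rik, was at 0 in all 12 libraries and does not check the knockdown. All 8 markers of embryonic stem cells were measured in every library, and their summed level was 2536 to 2703 at day 2, 2428 to 2628 at day 4, 1772 to 2211 at day 6, and in shControl 2811 to 3065 normalized counts. Long transcripts stood apart in some libraries. In day 6 replicate 3, the 523 tested genes with a transcript of at least 8 kb lay at a median of 0.16 above their mean over all libraries (log2), the highest of the 12, and the 2422 genes under 2.5 kb at -0.07. In shControl replicate 3 the same medians were -0.12 and 0.08.

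Of the 10 genes, Nid1 changed most. It was 2.79-fold lower at day 4 and 4.01-fold lower at day 6 than in shControl, whereas its paralog Nid2 did not pass the test in any comparison. Among the laminin chains, Lama5 was 3.45-fold higher and Lama1 1.62-fold lower at day 4, and Lamb1 was 2.02-fold higher at day 6. Hspg2 was 2.36-fold higher at day 6, and Sparc was lower at day 4 than at day 2. Several of these calls rested on few libraries. With each of 6 libraries left out in turn, the Lama1 and Sparc calls each held in 1 refit, that of Hspg2 in 2 and that of Lamb1 in 4. Those of Nid1 and Lama5 against shControl held in all 6. Of the type IV collagen chains, Col4a1 did not pass the test and Col4a2 was too low to be tested.

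**Figure D1:**
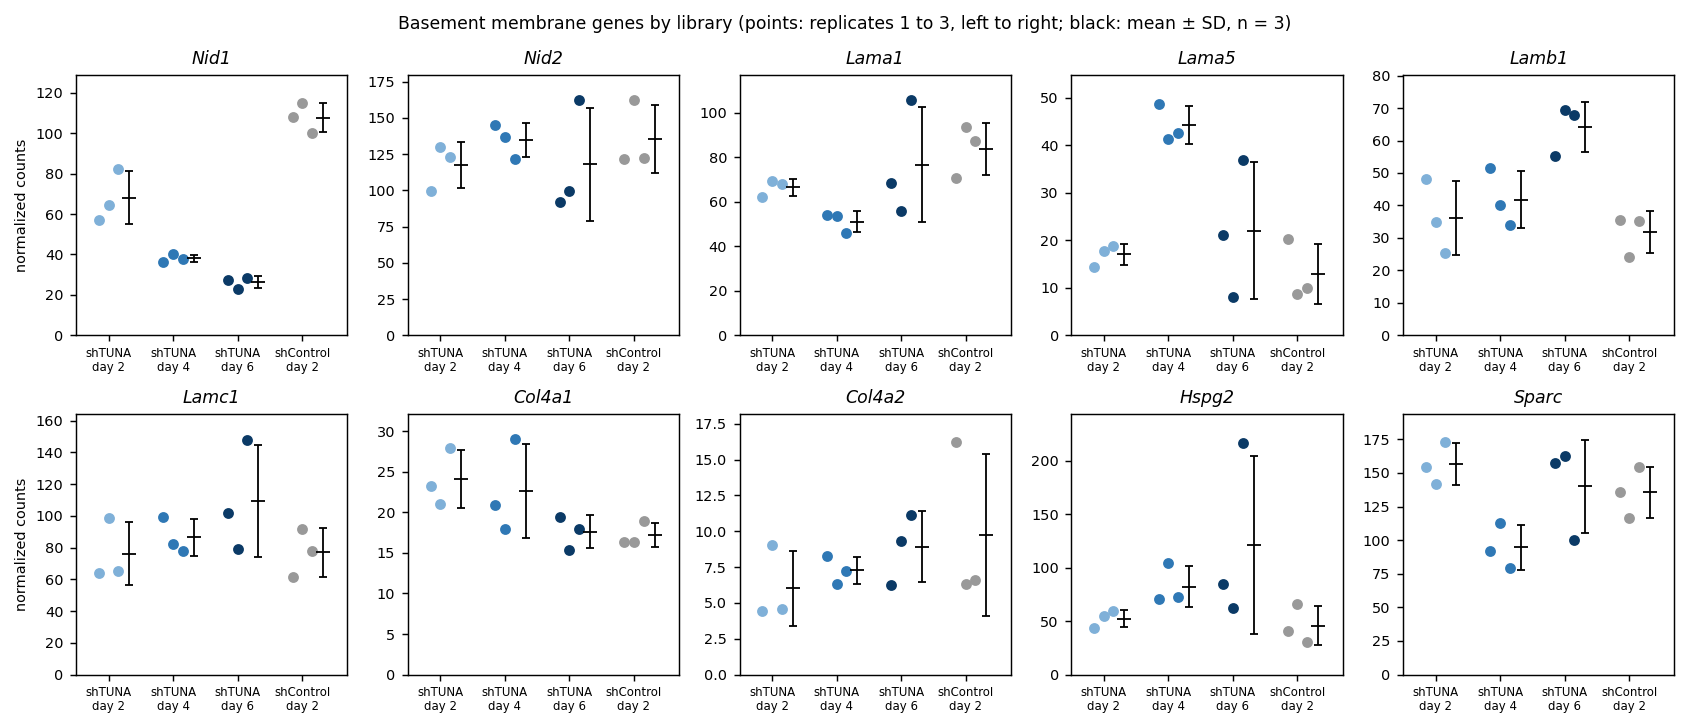
Normalized counts (vertical axes, each starting at 0) of the 10 genes in each of the 12 libraries, grouped as shTUNA day 2, day 4, day 6 and shControl (day 2); points are replicates 1 to 3 and black bars the mean ± SD (n = 3). The 4 groups of Nid1 do not overlap, with 22.8 to 28.2 at day 6 and 100.2 to 114.7 in shControl, the day 4 libraries of Lama5 lie above all others, and day 6 replicate 3 is the highest point for Lama1, Lamc1 and Hspg2.

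Nid1 encodes nidogen 1 (entactin), which binds the gamma 1 chain of laminin and type IV collagen. It had 56.9, 64.6 and 82.5 normalized counts at day 2, 36.2, 40.0 and 37.7 at day 4, 27.5, 22.8 and 28.2 at day 6, and 108, 114.7 and 100.2 in shControl. No library of any group reached into the range of another group, and the order ran from shControl down through day 2 and day 4 to day 6. The group means were 68.0 ± 13.1 at day 2, 38.0 ± 1.92 at day 4, 26.2 ± 2.95 at day 6 and 107.6 ± 7.26 in shControl (SD, n = 3). Each comparison was tested with limma over the 8739 rows that reached 10 normalized counts in 3 or more libraries, on the log2(value + 1) scale, and a gene is called where its p, adjusted by Benjamini-Hochberg over all those rows, is under 0.05. The log2 change was -1.48 ± 0.19 (SE) at day 4 against shControl (limma adjusted p = 8.2e-05) and -2.00 ± 0.19 at day 6 (adjusted p = 6.43e-06). Both calls held with each of the 6 libraries left out in turn, with changes between -1.53 and -1.43 at day 4 and between -2.06 and -1.91 at day 6. In these bulk libraries, fewer cells that make Nid1 and less Nid1 RNA per cell cannot be told apart.

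At day 2, the only day with a control of the same age, all 3 Nid1 values lay below all 3 control values, but the change of -0.67 ± 0.19 (95% interval -1.06 to -0.28) did not pass the limma test after adjustment (adjusted p = 0.113, unadjusted p = 0.00212). Scaling each library to the same total without the 3 dominant rows took it past the threshold (-0.83, limma adjusted p = 0.0389). That scaling also put the median change of all genes at -0.150 at day 2, compared with 0.006 as deposited. Between hairpin days, Nid1 was lower at day 4 than at day 2 (-0.81 ± 0.19, limma adjusted p = 0.0129). Without day 2 replicate 3, the highest of that group, this difference was -0.66 with an adjusted p of 0.0798. Day 6 against day 4 the change was -0.52 ± 0.19 and did not pass (limma adjusted p = 0.108). An annotated antisense transcript, Gm48682, lies within Nid1 over 8063 bases, and no source used here gives the strand of the reads, so reads of the 2 genes cannot be told apart.

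The promoter window of Nid1 is shown because this gene had the largest fall. The windows printed here come from RefSeq on GRCm38.p6 and run from 250 bases before to 50 bases after the annotated start, 5′ to 3′ on the gene's strand, and 7 of the 10 genes had one. The files themselves were made on mm9, so no measured value is tied to these coordinates. Capitals mark matches on either strand to the GC box (letters GGGCGG), the CCAAT box (letters CCAAT) or the TATA box (letters TATAAA), which are found in 35.7%, 37.4% and 13.6% of all 32851 promoter windows of that length. The Nid1 window is chr13:13437352-13437651 on the plus strand and holds 1 CCAAT box and 1 GC box and no TATA box.
Nid1: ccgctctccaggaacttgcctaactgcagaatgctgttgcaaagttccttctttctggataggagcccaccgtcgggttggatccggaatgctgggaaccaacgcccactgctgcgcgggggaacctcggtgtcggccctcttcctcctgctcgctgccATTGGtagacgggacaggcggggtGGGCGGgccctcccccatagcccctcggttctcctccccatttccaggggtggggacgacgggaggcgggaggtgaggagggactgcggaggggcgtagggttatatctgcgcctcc

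Nid2 encodes nidogen 2, which shares its domain layout with nidogen 1. It had 99.5, 129.8 and 123.2 normalized counts at day 2, 145.1, 137.0 and 121.8 at day 4, 91.9, 99.4 and 162.5 at day 6, and 121.9, 162.5 and 122.4 in shControl. Every group overlapped every other. Its log2 changes against shControl were -0.20 ± 0.20 at day 2, -0.00 ± 0.20 at day 4 (95% interval -0.43 to 0.43) and -0.23 ± 0.20 at day 6 (limma adjusted p = 0.755, 0.998 and 0.586). Nid2 overlaps Rtraf on the other strand by 437 bases. The ratio of Nid2 to Nid1 within a library, which is free of any scaling factor, was 1.75, 2.01 and 1.49 at day 2, 4.01, 3.42 and 3.23 at day 4, 3.34, 4.36 and 5.76 at day 6, and 1.13, 1.42 and 1.22 in shControl. All hairpin libraries lay above all control libraries. The mean log2 ratio was 0.48 higher at day 2, 1.5 higher at day 4 and 1.81 higher at day 6, where the geometric mean was 3.50-fold that of shControl. Each of these 3 differences had an exact two-sided permutation p of 0.1, the smallest that 3 against 3 libraries allow, and 0.225 after Benjamini-Hochberg adjustment over the 18 ratio tests made here.

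The laminin chains followed different courses. Lama1 encodes the alpha 1 chain, the main alpha chain of the laminin made by early embryos. It had 62.0, 69.1 and 68.1 normalized counts at day 2, 54.2, 53.4 and 45.9 at day 4, 68.4, 55.8 and 105.5 at day 6, and 70.7, 93.6 and 87.1 in shControl. The day 4 libraries were the lowest 3 of the 12, the day 2 libraries also lay below all controls, and the day 6 libraries spread across both. Against shControl the log2 change was -0.70 ± 0.21 at day 4 (limma adjusted p = 0.0335), -0.32 ± 0.21 at day 2 (adjusted p = 0.58) and -0.17 ± 0.21 at day 6 (adjusted p = 0.731). The day 4 call ended when shControl replicate 2 or 3 or any single day 4 library was left out (adjusted p 0.055 to 0.12) and held only without shControl replicate 1 (0.0352).

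Lama5 encodes the alpha 5 chain, which in mouse embryos is widespread in basement membranes. It had 14.4, 17.8 and 18.7 normalized counts at day 2, 48.7, 41.3 and 42.6 at day 4, 21.1, 8.01 and 36.9 at day 6, and 20.2, 8.71 and 9.84 in shControl. The 3 day 4 libraries were above every other library, and the other groups overlapped. The rise at day 4 was 1.79 ± 0.41 on the log2 scale (limma adjusted p = 0.00684) and kept its call with any of the 6 libraries left out (1.57 to 2.14). Only 1 control library reached the minimum of 10 normalized counts, so Lama5 was tested through its hairpin libraries, 8 of which did. Against day 2 the day 4 level was 1.33 ± 0.41 higher without passing (limma adjusted p = 0.0533), and day 6 was 1.20 ± 0.41 below day 4 without passing (adjusted p = 0.0925). Without day 6 replicate 3 the difference between day 6 and day 4 was -1.67 and was called (adjusted p = 0.018). The longest Lama5 transcript has 11.39 kb, and at day 4 against shControl the genes of at least 8 kb had a median change of 0.12 and those under 2.5 kb -0.06; the part of transcript length in the Lama5 result was not tested.

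Lamb1 encodes the beta 1 chain. It had 48.0, 34.8 and 25.3 normalized counts at day 2, 51.4, 40.0 and 34.1 at day 4, 55.2, 69.5 and 67.8 at day 6, and 35.6, 24.2 and 35.1 in shControl. The day 6 libraries were the highest 3 of the 12, and day 2 and day 4 overlapped the controls. The day 6 change was 1.01 ± 0.25 (limma adjusted p = 0.0183), against 0.16 ± 0.25 at day 2 (adjusted p = 0.868) and 0.39 ± 0.25 at day 4 (adjusted p = 0.309). The day 6 call was lost without shControl replicate 2 (adjusted p = 0.0978) or day 6 replicate 2 (0.0682). Its promoter window is shown for comparison with that of Nid1, since Lamb1 was the chain that was higher on the day Nid1 was lowest. It lies at chr12:31265043-31265342 on the plus strand and holds 1 CCAAT box and 2 neighbouring GC boxes, with no TATA box.
Lamb1: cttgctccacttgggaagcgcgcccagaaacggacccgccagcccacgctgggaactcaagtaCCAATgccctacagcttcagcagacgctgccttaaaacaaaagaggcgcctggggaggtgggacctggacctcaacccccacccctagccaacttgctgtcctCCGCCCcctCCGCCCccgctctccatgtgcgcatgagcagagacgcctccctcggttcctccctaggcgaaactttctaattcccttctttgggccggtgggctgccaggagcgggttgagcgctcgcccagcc

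Lamc1 encodes the gamma 1 chain, shared by most laminins and the binding partner of nidogens. It had 64.2, 98.9 and 65.1 normalized counts at day 2, 99.6, 82.1 and 77.6 at day 4, 101.7, 78.9 and 147.6 at day 6, and 61.3, 91.9 and 78 in shControl. All groups overlapped, and the highest value was day 6 replicate 3. The changes against shControl were -0.03 ± 0.23, 0.18 ± 0.23 and 0.47 ± 0.23 at days 2, 4 and 6 (limma adjusted p = 0.98, 0.664 and 0.278), with a 95% interval of -0.02 to 0.96 at day 6. A processed pseudogene, Gm8818, lies within Lamc1 on the other strand. Another annotated gene, Gm38009, overlaps Lamc1 by 3341 bases on the same strand. Reads of either could be mixed with those of Lamc1.

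**Figure D2:**
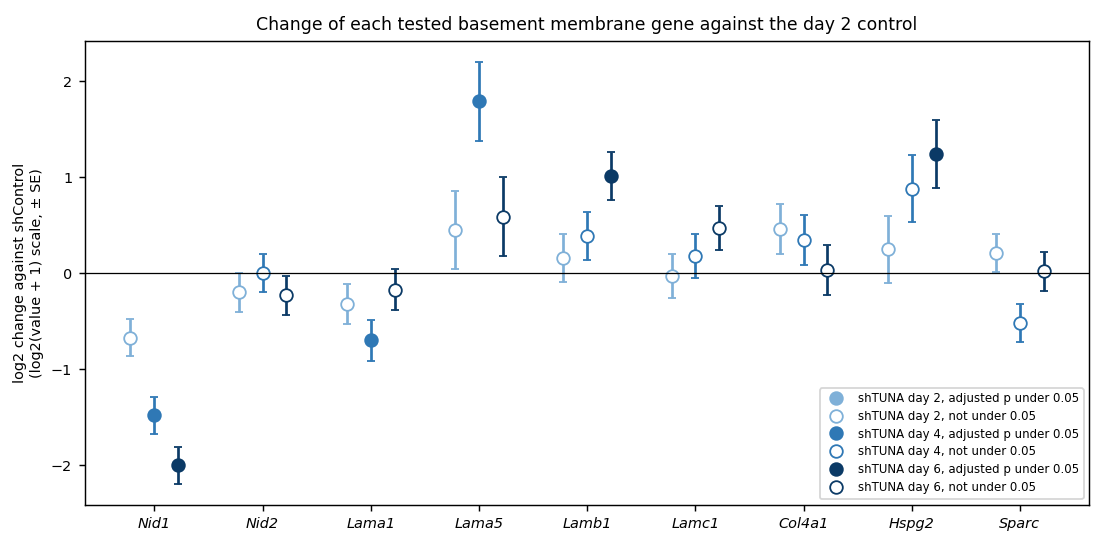
Log2 change against shControl (vertical axis, log2(value + 1) scale) of the 9 genes tested, at shTUNA day 2, day 4 and day 6; points are limma estimates, bars ± SE, and filled points have an adjusted p under 0.05. Nid1 stands at -0.67, -1.48 and -2.00, Lama5 stands at 1.79 at day 4, and Lamb1 and Hspg2 are called higher at day 6.

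Ratios between chains within a library do not depend on its scaling factor. They are made from the same values as the changes above, so they are no separate support for them. A part of transcript length in the ratios was not tested. The ratio of Nid1 to Lamc1, its laminin partner, was 0.886, 0.653 and 1.27 at day 2, 0.363, 0.487 and 0.485 at day 4, 0.271, 0.289 and 0.191 at day 6, and 1.76, 1.25 and 1.29 in shControl. It overlapped the controls at day 2 and lay wholly below them at day 4 and day 6, by 3.20-fold and 5.74-fold. The exact permutation p was 0.2 at day 2 and 0.1, the smallest possible, at the later days (0.4 and 0.225 after adjustment over the 18 ratio tests). The ratio of Lama1 to Lamb1 was 1.05, 1.33 and 1.35 at day 4 and 1.24, 0.802 and 1.56 at day 6, below all of 1.98, 3.87 and 2.48 in shControl. Its differences of -1.11 and -1.21 in log2 also had the smallest possible exact p of 0.1. At day 2 that ratio was 1.29, 1.99 and 2.69 and overlapped the controls. The ratio of Lama5 to Lamb1 was 0.948, 1.03 and 1.25 at day 4 and 0.566, 0.36 and 0.28 in shControl, without overlap (difference 1.47, exact permutation p = 0.1). At day 6 it was 0.382, 0.115 and 0.543, within and below the control range (difference -0.42, exact permutation p = 0.8). Lamc1 to Lamb1 differed by no more than -0.56, at day 6 (exact permutation p = 0.4).

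**Figure D3:**
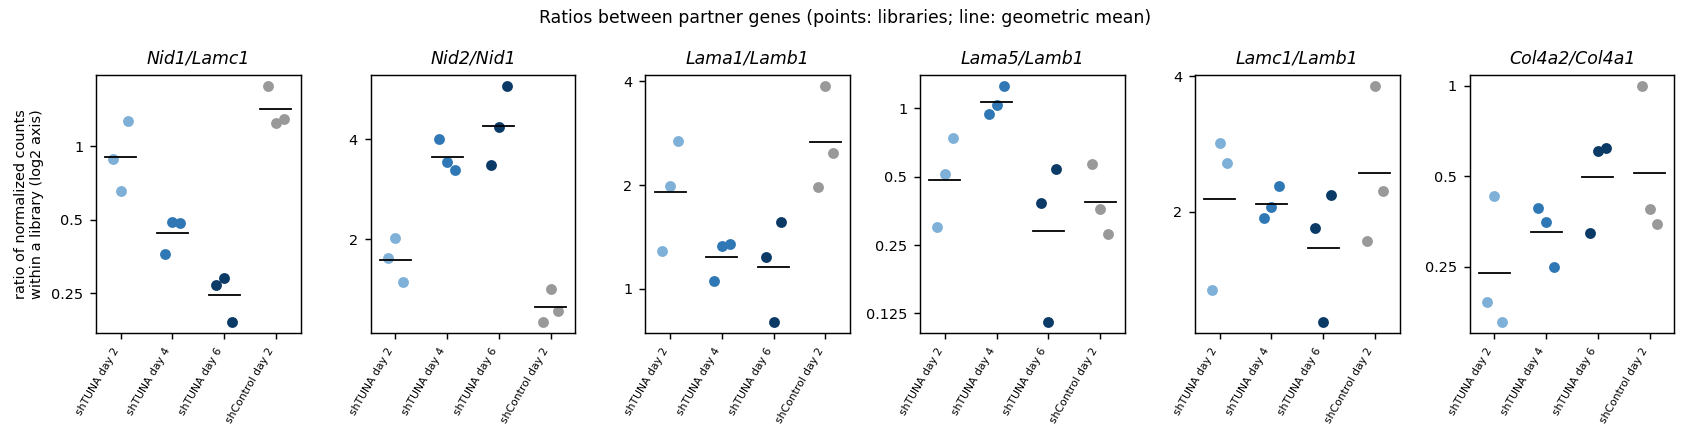
Ratios of normalized counts between partner genes within a library (vertical axes, log2 scale), by group; points are libraries and lines geometric means. Nid1/Lamc1 stands at 0.191 to 0.289 at day 6 and at 1.25 to 1.76 in shControl, and Nid2/Nid1 runs the other way, while Col4a2/Col4a1 and Lamc1/Lamb1 overlap between groups.

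Col4a1 and Col4a2 encode the alpha 1 and alpha 2 chains, which join in the common type IV collagen trimer and lie head to head on chromosome 8, transcribed in opposite directions. Col4a1 had 23.3, 21 and 28 normalized counts at day 2, 20.9, 17.9 and 29.1 at day 4, 19.4, 15.4 and 18 at day 6, and 16.3, 16.4 and 19 in shControl. The day 2 libraries lay above all controls, and the later days overlapped them. The changes of 0.46 ± 0.26, 0.35 ± 0.26 and 0.03 ± 0.26 did not pass (limma adjusted p = 0.501, 0.381 and 0.973), and the 95% interval at day 2 was -0.08 to 1.00. Col4a2 had 4.43, 9.05 and 4.60 at day 2, 8.24, 6.31 and 7.25 at day 4, 6.26, 9.33 and 11.1 at day 6, and 16.2, 6.35 and 6.59 in shControl. It reached 10 normalized counts in 2 libraries only and was the 1 gene of the 10 that was not tested. A limma fit without the filter gave changes of -0.55 ± 0.46, -0.26 ± 0.46 and -0.03 ± 0.46 (adjusted p = 0.804, 0.803 and 1.0), and at this depth the 95% interval at day 6 ran from -0.99 to 0.94. The ratio of Col4a2 to Col4a1 was 0.19, 0.43 and 0.164 at day 2 and 0.996, 0.388 and 0.348 in shControl (exact permutation p = 0.3), with shControl replicate 1 the highest of the 12.

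The promoter windows of the collagen pair are shown because they overlap: 78 bases are common to both, read from opposite strands. That of Col4a1 is chr8:11312777-11313076 on the minus strand and that of Col4a2 chr8:11312555-11312854 on the plus strand. Col4a1 has 1 CCAAT box and 1 GC box in its window, Col4a2 has 1 CCAAT box and 3 GC boxes, and neither has a TATA box. Their GC content is 74% and 73.7%, against 64.7% for the Nid1 window. The annotated genes overlap by 22 bases, and antisense transcripts are annotated within both.
Col4a1: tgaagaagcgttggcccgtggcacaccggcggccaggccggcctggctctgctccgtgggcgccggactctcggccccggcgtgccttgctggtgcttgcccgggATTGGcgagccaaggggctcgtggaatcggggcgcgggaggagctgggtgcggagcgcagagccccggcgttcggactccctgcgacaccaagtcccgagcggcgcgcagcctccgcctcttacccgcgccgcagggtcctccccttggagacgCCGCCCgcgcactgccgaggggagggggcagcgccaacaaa
Col4a2: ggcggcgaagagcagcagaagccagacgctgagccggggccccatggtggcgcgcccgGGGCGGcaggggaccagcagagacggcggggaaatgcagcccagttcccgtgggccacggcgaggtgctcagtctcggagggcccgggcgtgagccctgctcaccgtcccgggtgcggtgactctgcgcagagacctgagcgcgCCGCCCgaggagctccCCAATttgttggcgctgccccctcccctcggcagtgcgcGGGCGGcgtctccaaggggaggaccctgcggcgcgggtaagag

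Hspg2 encodes perlecan, a large heparan sulfate proteoglycan that binds nidogen and growth factors. It had 43.6, 54.5 and 59.1 normalized counts at day 2, 70.2, 104.1 and 72.1 at day 4, 84.6, 61.8 and 216.3 at day 6, and 40.3, 66.3 and 30.8 in shControl. All day 4 libraries lay above all controls, whereas day 6 replicate 2 fell among the controls and day 6 replicate 3 was far above every other library. The change was called at day 6 (1.24 ± 0.35, limma adjusted p = 0.0431) and not at day 4 (0.88 ± 0.35, adjusted p = 0.103) or day 2 (0.25 ± 0.35, adjusted p = 0.844). Day 6 was not called against day 4 (0.37 ± 0.35, limma adjusted p = 0.601). Without day 6 replicate 3 the day 6 change was 0.72 (adjusted p = 0.145), and the call was also lost without shControl replicate 1 (0.128), shControl replicate 3 (0.166) or day 6 replicate 1 (0.0715). The Hspg2 transcript of 14.19 kb is the longest of the 10, and day 6 replicate 3 and shControl replicate 3 are the libraries in which long transcripts stood highest and lowest; the part of transcript length in this result was not tested.

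Sparc encodes a small secreted protein, also called osteonectin or BM-40, that binds type IV collagen. It had 154.7, 141.8 and 173.2 normalized counts at day 2, 92.2, 112.7 and 79.1 at day 4, 157.6, 162.7 and 100.4 at day 6, and 135.9, 116.5 and 154.5 in shControl. The day 4 libraries lay below all day 2 and all control libraries, and day 6 overlapped each of the other groups. Day 4 was lower than day 2 by a log2 change of -0.73 ± 0.20 (limma adjusted p = 0.0296). That call held without day 4 replicate 2 (adjusted p = 0.0353) and was lost without any other of the 6 libraries (0.0597 to 0.124). Against shControl the changes were 0.21 ± 0.20 at day 2, -0.52 ± 0.20 at day 4 and 0.02 ± 0.20 at day 6 (limma adjusted p = 0.725, 0.0824 and 0.966). Under the scaling to the total without the dominant rows, the day 4 change was -0.73 and was called (adjusted p = 0.0132). Day 6 lay 0.54 ± 0.20 above day 4 without passing (limma adjusted p = 0.112) and was called without day 6 replicate 3, the lowest day 6 library for Sparc (0.77, adjusted p = 0.0198).

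Counted over the 9 genes tested, none was called at day 2 against shControl, where 0.961% of all 8739 rows were called, and 1 had an unadjusted p under 0.05 (1072 of all rows). At day 4, 1 was higher (Lama5) and 2 were lower (Nid1 and Lama1), where 6.99% of all rows were called higher and 7.76% lower (14.7% in all), and 5 of the 9 had an unadjusted p under 0.05 (2614 of all rows). At day 6, 2 were higher (Lamb1 and Hspg2) and 1 was lower (Nid1), where 3.07% of all rows were called higher and 3.15% lower (6.21% in all). There 3 of the 9 had an unadjusted p under 0.05 (1702 of all 8739 rows). Between day 4 and day 2, none was higher and 2 were lower (Nid1 and Sparc), against 3.27% and 4.38% of all rows (7.66% in all). An unadjusted p under 0.05 was found for 3 of the 9 there (2067 of all 8739 rows). Between day 6 and day 4 none was called, against 2.64% of all rows called higher and 2.94% lower (5.58% in all), and 5 of the 9 had an unadjusted p under 0.05 (1811 of all rows). The median log2 change of the 9 was 0.16, 0.18 and 0.03 at days 2, 4 and 6 against shControl, and that of all rows 0.006, -0.009 and -0.010; the 3 comparisons share their control libraries. Nid1 was the 1 gene of the 9 called against shControl at more than 1 day.

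Scaling to the total without the 3 dominant rows put the median change of all rows at -0.213 at day 4 against shControl, compared with -0.009 as deposited. It turned the split of calls there to 346 higher and 1334 lower, against 611 and 678 as deposited. Nid1, Lama1 and Sparc were then lower and Lama5 higher at day 4. At day 2 against shControl the split became 21 higher and 104 lower, against 36 and 48. Between day 6 and day 4 that scaling put the median at 0.237, compared with 0.006, and gave 755 higher and 131 lower, against 231 and 257. Lama1, Lamb1 and Sparc were then called higher at day 6 than at day 4. Nid1 at day 4 and day 6, Lama1 and Lama5 at day 4, and Lamb1 and Hspg2 at day 6 kept their direction and call against shControl under every scaling tried. Those of Lama1, Lamb1 and Hspg2 were lost when some single libraries were left out.

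Levels between genes are compared per kb of the longest annotated coding transcript. In shControl, Sparc had 59.0 normalized counts per kb, Nid2 27.8 and Nid1 17.7, and these 3 did not overlap each other or the next gene. Lamc1 (10.1) and Lama1 (8.80) overlapped, as did each neighbouring pair from Lamb1 (5.47) through Hspg2 (3.23), Col4a1 (2.60) and Col4a2 (1.51) to Lama5 (1.13). At day 6 Nid1 had 4.30 per kb, and its range of 3.74 to 4.64 lay below those of Lamc1, Lama1 and Lamb1, which it exceeded in shControl. Lamb1 had 11.1 per kb at day 6 and Lama1 8.04, the reverse of their order in shControl, although their day 6 ranges of 9.55 to 12 and 5.85 to 11.1 overlapped. Lama5 had 3.88 per kb at day 4, against 1.13 in shControl.

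**Figure D4:**
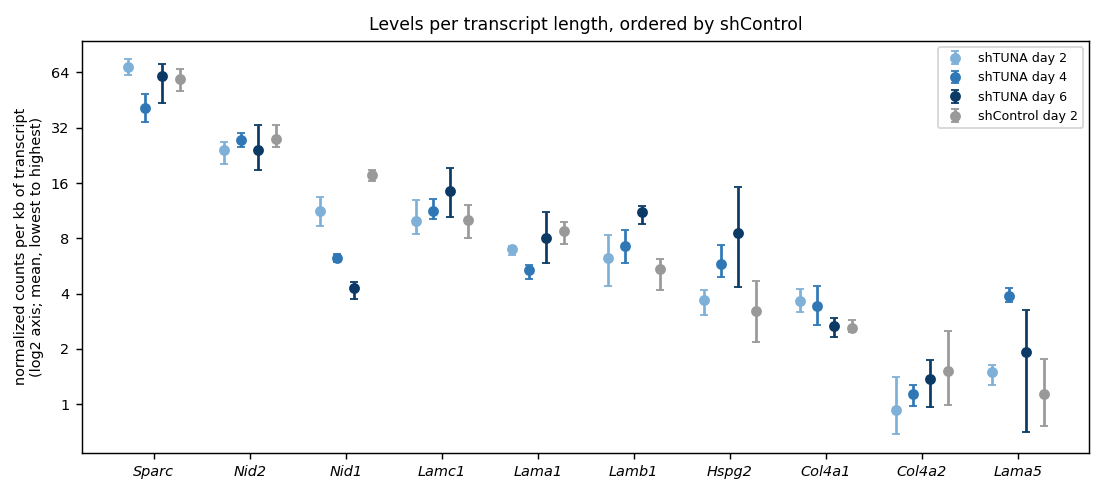
Normalized counts per kb of transcript (vertical axis, log2 scale) of the 10 genes, ordered by their shControl mean; points are group means of shTUNA day 2, day 4, day 6 and shControl (day 2), and bars run from the lowest to the highest of 3 libraries. Nid1 stands at 4.30 per kb at day 6 and at 17.7 in shControl. By group mean, Sparc and Nid2 stay the 2 most abundant in every group. At day 6 the ranges of Nid2 (18.9 to 33.3) and Lamc1 (10.4 to 19.4) overlap.

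The genes whose 3 log2 changes against shControl were most like those of Nid1, by the root mean square difference over 3254 tested genes averaging at least 50 normalized counts, were Rcn1 (0.40), Aebp2 (0.44), Slc7a3 (0.51), Slc20a1 (0.54) and H2-M5 (0.55). Rcn1 changed by -0.55, -1.11 and -1.43 at days 2, 4 and 6, and Aebp2 by -0.49, -0.94 and -1.49. Both moved less than Nid1 at every day, and the likeness spans 3 points that share 1 control group. For the mean of Col4a1 and Col4a2 the nearest were Skiv2l2 (0.02), Nptn (0.03), Ube2n (0.03), Rps9 (0.04) and Zfp191 (0.04), all with changes between -0.09 and 0.09. That mean came from the fit without the filter, as Col4a2 was not tested. Col4a1 (0.46, 0.35 and 0.03) and Col4a2 (-0.55, -0.26 and -0.03) had changes of opposite sign at days 2, 4 and 6. They cancel in the mean, so genes with little change had to be nearest, and these 5 describe neither chain.

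The other chains of the same families that are reported here were near 0. Each of 10 further laminin and type IV collagen chains had at most 6.27 normalized counts in any library, none was tested, and Col4a3 and Col4a4 were listed at 0 throughout. Of 26 other basement membrane proteins, 5 were tested, none was higher and 2 were lower than shControl at day 4: agrin (Agrn, 16.1 ± 4.48 against 36.8 ± 6.25; limma adjusted p = 0.00591) and netrin 1 (Ntn1, 11.4 ± 5.39 against 27.5 ± 4.93; adjusted p = 0.00917). The shares of all rows at day 4 were 6.99% called higher and 7.76% lower. None of the 5 was called at day 2 or day 6 against shControl, where 0.961% and 6.21% of all rows were called. Ntn1 had 53.5 ± 12.7 at day 6, a change of 0.92 ± 0.30 against shControl that did not pass (limma adjusted p = 0.0825) except with vooma weights (0.0315) or the 2 groups alone (0.046). It was higher at day 6 than at day 4 (2.19 ± 0.30, limma adjusted p = 0.000272). Fibronectin (Fn1) had 146.6 ± 13.3 at day 4 and 108.2 ± 35.6 in shControl and was not called (limma adjusted p = 0.239).

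Among 17 receptors of basement membrane proteins, 10 were tested, and 1, 2 and 2 were higher and 0, 2 and 1 lower than shControl at days 2, 4 and 6. Over all rows, 0.412%, 6.99% and 3.07% were called higher and 0.549%, 7.76% and 3.15% lower at those days. Itgav, an integrin alpha chain that binds matrix proteins with an RGD motif, had 62.5 ± 6.52, 117.0 ± 4.37 and 79.4 ± 3.20 at days 2, 4 and 6 and 32 ± 1.07 in shControl, and was called at each day (limma adjusted p = 0.00818, 2.2e-06 and 9.71e-05). Itgb1, the beta chain of most laminin and collagen receptors, had 104.9 ± 16.1 at day 6 and 52.3 ± 10.8 in shControl (1.00 ± 0.19, limma adjusted p = 0.00336). At day 4 it was called at 0.67 ± 0.19 (adjusted p = 0.0228) but not without shControl replicate 3, day 4 replicate 2 or day 4 replicate 3 (up to 0.111), nor with scaling to the total without the dominant rows (0.46, adjusted p = 0.128). Itga3, the alpha chain of a laminin receptor, was lower at day 4 (10.8 ± 2.71 against 25.3 ± 4.95, limma adjusted p = 0.0132; 0.0647 without shControl replicate 1). The other of the 2 counted lower at day 4 was Itga9, with 3.14 ± 2.73 at day 4 and 11.9 ± 1.30 in shControl. It reached 10 normalized counts in all 3 control libraries and in 1 other, so that it was tested only through the group where it was high, and its count among the calls has no weight of its own. Syndecan 4 (Sdc4), a receptor that carries heparan sulfate chains, was lower at day 6 (37.1 ± 9.17 against 94.1 ± 10.3, limma adjusted p = 0.000307).

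Of 25 measured genes for collagen folding, crosslinking and secretion, 10 were tested, 2 were higher at day 4 and 1 at day 6, and none was lower. At day 4, 6.99% of all rows were called higher and 7.76% lower. At day 6 these shares were 3.07% and 3.15%. Plod2, a lysyl hydroxylase, had 156.3 ± 29.2 at day 4, 55.9 ± 1.74 at day 6 and 27.5 ± 6.02 in shControl (limma adjusted p = 1.46e-06 and 0.00415), and P4ha1, a prolyl hydroxylase subunit, had 165.1 ± 12.5 at day 4 and 59.8 ± 9.39 in shControl (adjusted p = 0.000107). Of 23 matrix proteases and inhibitors, 8 were tested. Against shControl, 2 were higher and 1 was lower at day 4 and likewise at day 6, beside the same shares of all rows. Cathepsin L (Ctsl) was higher at both days (79.1 ± 6.98 and 67.9 ± 8.82 against 35.4 ± 3.66; limma adjusted p = 0.000872 and 0.00837). The protease inhibitor Serpine2 was higher at day 4 (39.4 ± 7.21 against 12.2 ± 2.41, limma adjusted p = 0.00329). Timp3, an inhibitor of matrix metalloproteinases and the other of the 2 counted higher at day 6, had 21.3 ± 8.88 at day 6 and 2.21 ± 1.42 in shControl. It reached 10 normalized counts in the 3 day 6 libraries alone, so that its count among the calls has no weight of its own. The serine protease Htra1 was lower at day 4 (19.1 ± 6.55 against 36.0 ± 3.17) and day 6 (17.4 ± 2.50), with limma adjusted p of 0.0343 and 0.0408. Its day 6 call was lost without any 1 library (up to 0.136), and its day 4 call without any control library or day 4 replicate 1 (up to 0.157). With no filter both calls were lost (0.0571 at day 4 and 0.0624 at day 6), as was the day 4 call with the 2 groups alone (0.0515).

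**Figure D5:**
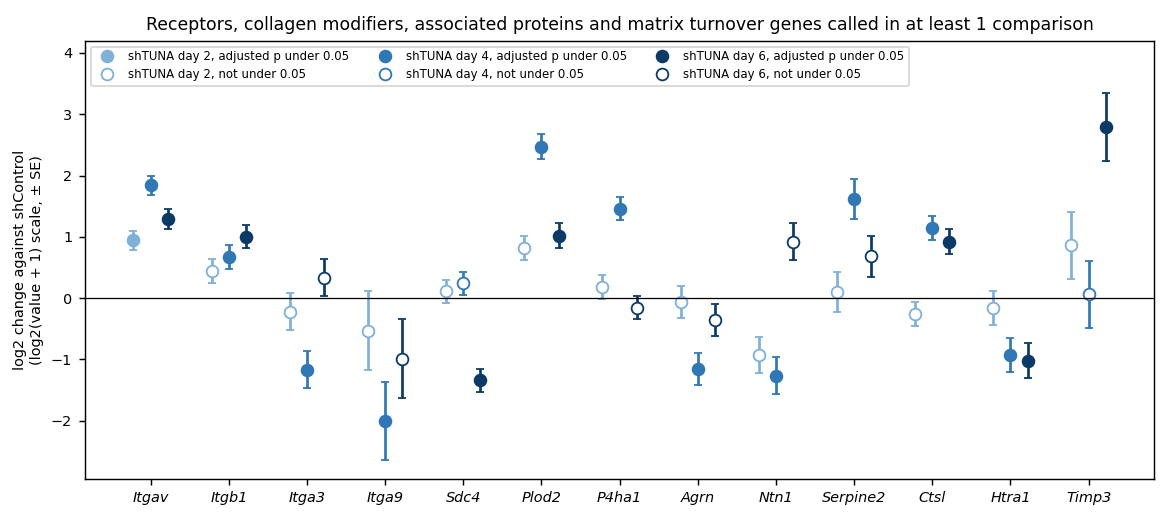
Log2 change against shControl (vertical axis, log2(value + 1) scale) at shTUNA day 2, day 4 and day 6. The genes are the receptor, collagen-modifying, associated and turnover genes called against shControl at 1 or more days. Points are limma estimates, bars ± SE, and filled points have an adjusted p under 0.05. The receptor gene Bcam was called only between hairpin days (-1.35 for day 4 against day 2, 1.14 for day 6 against day 4) and is not shown. Itgav is filled at all 3 days (0.94, 1.84 and 1.29), and most other filled points fall at day 4; Itga9 and Timp3 were tested only through the group in which they were high.

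Markers of cell types that make much basement membrane were low. The 12 markers of primitive and parietal endoderm summed to 6.81 to 19 normalized counts at day 2, 27.2 to 42.4 at day 4, 14.2 to 18.7 at day 6, and in shControl 10.1 to 16.5, with Apoa1, Afp and Ttr at 0 throughout. Within that list Gata6 had 11 ± 2.60 at day 4 and 3.67 ± 2.07 in shControl, and Pdgfra had 2.63 ± 2.34 at day 2, 16.6 ± 3.87 at day 4, 6.04 ± 2.83 at day 6 and 6.04 ± 4.28 in shControl. Pdgfra was the 1 member tested, and only through the day 4 libraries, where it was high. At day 4, Pdgfra and Gata6 made up most of the sum, and 5 of the 12 were listed at 0 in all libraries of that day. The sum is thus highest on the day Lama5 was highest and Lama1 and Sparc lowest, mostly through 2 genes. Its part in those results was not tested. The 4 endothelial markers summed to 14.4 to 20.6 at day 2, 21.9 to 24.9 at day 4, 8.26 to 13.1 at day 6, and in shControl 8.99 to 16.5, with Cdh5 listed at 0 throughout. Most of that was Tek, with 22.7 ± 1.89 at day 4 against 8.89 ± 5.33 in shControl (limma adjusted p = 0.0223; up to 0.111 without shControl replicate 1, day 4 replicate 1 or day 4 replicate 2). Of 10 fibroblast markers, none was tested, and 7, among them Col1a1, Col1a2 and Col3a1, were listed at 0 in all libraries. Of 3 measured trophoblast markers, none was tested; Hand1 was at 0 throughout and Cdx2 was listed above 0 only at day 6 (3.9 to 6.64). Among the 8 stem cell markers, 2 were lower at day 4 (Zfp42 and Pou5f1, limma adjusted p = 0.00528 and 0.0113) and 3 at day 6 (Nanog, Sox2 and Zfp42, adjusted p = 0.00188, 0.0134 and 0.0247). The other 6 were not called at day 4, where Sox2 (0.16), Klf4 (0.36), Dppa5a (0.47) and Tdgf1 (0.33) had positive log2 changes. The median of the 8 was -0.04 at day 4 and -0.53 at day 6. Of all rows, 7.76% were called lower at day 4 and 3.15% at day 6. Pou5f1 lost its call without shControl replicate 3 (0.0513), Sox2 without shControl replicate 2 (0.055), and Zfp42 at day 6 without any library but day 6 replicate 2 (up to 0.083) and with the 2 groups alone (0.0518). The part of these marker changes in the fall of Nid1 was not tested.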

How the data were processed

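The 12 libraries of CCE cells hold 3 for each of shTUNA day 2, day 4 and day 6 and shControl (day 2), grouped by their titles. The authors deposited log2 normalized counts for 37477 gene symbols; the submitters' processing notes name BWA, DESeq and mm9 without versions or roles. The deposited log2 values stop at 0, where 21694 rows stayed throughout. Below 20 reads, 43.9% to 57.3% of the values were whole reads (tolerance 0.02), so the values are weighted counts and no count test was run, although the plan allowed for one.

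Values were raised back to normalized counts, and limma 3.58.1 (R 4.3.3) modelled log2(value + 1) with a coefficient for each group, an intensity trend and all 12 libraries in the fit (8 residual and 9.48 prior degrees of freedom). The filter of 10 normalized counts in 3 or more libraries kept 8739 rows, and Benjamini-Hochberg adjustment ran within each of 5 comparisons, with a threshold of 0.05; 95% intervals use those degrees of freedom. The fit was also run on simulated whole counts, unlike the values here, and no statement here rests on that run. Fold changes on this scale understate changes of low genes. The 10 genes, the 10 further lists (140 entries) and the rules for naming genes were chosen with earlier results of these data known. All 10 genes are named, as are the 5 genes most like Nid1 and the 5 most like the mean of the collagen pair. Each further list has up to 4 members named per comparison with shControl, by the smallest adjusted p among those called. Other list genes (Bcam, Fn1, Pdgfra, Gata6, Cdx2, Klf4, Dppa5a, Tdgf1 and those listed at 0) were named after their values were seen. 1 item is not reported here. Recovered reads come from the smallest step between values.

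Gene names, transcript lengths and overlaps came from GENCODE M21 and promoters from RefSeq, both on GRCm38.p6; 79.0% of symbols matched a RefSeq symbol or synonym. The alternatives took another scaling (the total without the 3 dominant rows, the upper quartile, the median of ratios), no filter or a mean of at least 20, a pseudocount of 0.5 or 5, vooma weights, the 2 groups alone, a block on the replicate number, and each library left out. The check of transcript length, on the 87.9% of tested rows with a length, was added after the data were seen. Plots used matplotlib 3.10.9 (Python 3.11.15).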

Additional observations from a re-analysis of the deposited data

Results flagged for a closer look

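Nid1 and Sparc moved differently against shControl at different days by a test of the difference itself. Nid1 was lower at day 4 than at day 2 by a log2 change of -0.81 ± 0.19 (limma adjusted p = 0.0129), with all 3 day 4 libraries below all 3 day 2 libraries; this rests in part on day 2 replicate 3, without which the change was -0.66 (adjusted p = 0.0798). Sparc was lower at day 4 than at day 2 by -0.73 ± 0.20 (limma adjusted p = 0.0296), again in 3 of 3 libraries; that call was lost when any library but day 4 replicate 2 was left out (-0.61 to -0.80, adjusted p 0.0597 to 0.124).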

How the results depend on the processing

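Of the calls of the 10 genes, those of Nid1 (day 4 and day 6 against shControl) and Lama5 (day 4) held under all 10 alternatives and with each library left out; Lamb1 at day 6, Lama1 at day 4, and Nid1 and Sparc between day 4 and day 2 held under the 10 alternatives but not every left-out library. Hspg2 at day 6 lost its call with no filter, a mean of at least 20, vooma weights and the 2 groups alone (1 gene higher in place of 2), and day 6 against shControl had 1 higher with any library left out. Between day 4 and day 2, Lama5 made 1 higher with upper quartile scaling, a pseudocount of 5, vooma weights and the 2 groups alone, and leaving out libraries gave 0 to 2 lower. With the total scaling 1 gene was lower at day 2 and 3 were higher between day 6 and day 4, where leaving out a library gave 0 to 1 higher and 0 to 1 lower; at day 4 it gave 1 to 2 lower. Over all rows, day 2 gave 84 calls, 52 with no filter and 18 to 45 with a library left out. With a library left out, refits gave 818 to 1287 calls at day 4 (1289 with all libraries), 298 to 556 at day 6 (543), 337 to 739 for day 4 against day 2 (669) and 232 to 455 for day 6 against day 4 (488), which gave 886 with the total scaling and 197 with the 2 groups alone.

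The replicate number as a block did not pair the libraries: deviations of same-numbered libraries correlated at -0.277 to 0.328 (median 0.018, 18 pairs). With that block Lama5 was called between day 4 and day 2 (1.33, limma adjusted p = 0.0455; 1 higher), and Htra1 at day 6 was not (adjusted p = 0.0602).

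Changes that turned sign were uncalled, and the cause was not tested. Nid2 at day 4 was 0.01 with the median of ratios and 0.02 with the upper quartile. With the total scaling, Nid2 was 0.00, Ctsl 0.01 and Htra1 0.14 between day 6 and day 4, Lamb1 -0.00, Sdc4 -0.05, Serpine2 -0.05 and Sox2 -0.11 at day 2, and Lamc1 -0.03, Sox2 -0.05 and Timp3 -0.09 at day 4. With a library left out, the ranges at day 2 were -0.07 to 0.38 for Lamb1, -0.23 to 0.11 for Lamc1, -0.21 to 0.07 for Agrn and -0.23 to 0.34 for Serpine2. At day 4 they were -0.07 to 0.14 for Nid2 and -0.20 to 0.39 for Timp3. At day 6 they were -0.42 to 0.03 for Lama1, -0.04 to 0.11 for Col4a1, -0.10 to 0.25 for Sparc, -0.00 to 0.53 for Itga3 and -0.15 to 0.73 for Tek. Between day 6 and day 4 they were -0.16 to 0.74 for Hspg2, -0.39 to 0.10 for Htra1 and -0.04 to 0.29 for Zfp42, and for Col4a1 between day 4 and day 2 -0.29 to 0.04. The 18 ratios moved by less than 1 SD. Depth limits Col4a2 and the controls of Lama5 most.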
